A study of Homo sapiens with 15 samples.

Results

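Cholesterol synthesis, uptake and efflux was described through 31 named genes out of 17272 genes measured in LNCaP cells. The 31 were chosen by symbol for their role in the pathway, with earlier results of these data known. All 31 had a row, and all 31 passed the filter on low values that left 17046 genes for testing. They comprise 19 enzymes of synthesis (7 that lead from acetyl-CoA to farnesyl diphosphate, 3 that lead on to lanosterol, and 9 that turn lanosterol into cholesterol), 5 genes of sterol sensing, 3 of cholesterol transport inside the cell, and 4 of efflux and its nuclear receptors. LNCaP cells, an established line from a human prostate cancer, respond to androgens. By the labels, 10 libraries came from cells given the synthetic androgen R1881 at 1 nM with the solvent DMSO (R1881 + DMSO), and 5 from cells given R1881 at 1 nM together with the androgen receptor inhibitor enzalutamide at 2 µM (R1881 + enzalutamide). In both groups the cells had been kept for 2 days in charcoal-stripped serum, which is depleted of androgens and of other steroids, and were collected after 22 h of treatment. No group without R1881 was analysed here, so each difference between treatments below is between androgen with and without the inhibitor, in a single cell line.

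Cells make cholesterol from acetyl-CoA by way of mevalonate, farnesyl diphosphate, squalene and lanosterol. When the endoplasmic reticulum is poor in sterols, SCAP carries the SREBP transcription factors to the Golgi, where proteases release them, and SREBP2 then turns on the genes of synthesis and uptake. When sterols are plentiful, INSIG proteins hold SCAP back, and oxysterols activate the LXR nuclear receptors, which turn on the efflux transporters ABCA1 and ABCG1. In prostate epithelium, androgens are known to raise the expression of lipid synthesis genes.

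The DNA just upstream of 5 members is shown, because these members had among the largest changes in each direction or, in SREBF2, held the sterol regulatory element that was searched. Each line gives 250 bases before the transcription start, from RefSeq on GRCh38.p14, 5′ to 3′ on the strand of the gene. Capitals mark the NF-Y box (CCAAT, or ATTGG where it lies on the other strand) and the sterol regulatory element (TCACNCCAC).
HMGCS1, chr5:43313413-43313662, minus strand: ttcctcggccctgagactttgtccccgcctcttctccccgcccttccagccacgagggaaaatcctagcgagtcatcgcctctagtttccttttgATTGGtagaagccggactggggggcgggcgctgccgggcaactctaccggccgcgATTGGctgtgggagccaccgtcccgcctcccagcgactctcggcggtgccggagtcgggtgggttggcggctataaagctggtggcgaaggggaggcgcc
INSIG1, chr7:155297628-155297877, plus strand: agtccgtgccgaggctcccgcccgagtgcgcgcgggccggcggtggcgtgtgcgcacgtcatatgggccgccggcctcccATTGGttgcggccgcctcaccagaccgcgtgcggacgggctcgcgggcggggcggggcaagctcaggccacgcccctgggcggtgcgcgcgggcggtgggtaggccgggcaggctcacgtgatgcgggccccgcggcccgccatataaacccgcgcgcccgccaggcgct
SREBF2, chr22:41832855-41833104, plus strand: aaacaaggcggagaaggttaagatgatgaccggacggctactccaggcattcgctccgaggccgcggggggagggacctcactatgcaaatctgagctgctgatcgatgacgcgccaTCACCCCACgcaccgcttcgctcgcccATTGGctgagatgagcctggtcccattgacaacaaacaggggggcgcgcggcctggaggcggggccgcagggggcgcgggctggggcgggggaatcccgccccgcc
INSIG2, chr2:118088221-118088470, plus strand: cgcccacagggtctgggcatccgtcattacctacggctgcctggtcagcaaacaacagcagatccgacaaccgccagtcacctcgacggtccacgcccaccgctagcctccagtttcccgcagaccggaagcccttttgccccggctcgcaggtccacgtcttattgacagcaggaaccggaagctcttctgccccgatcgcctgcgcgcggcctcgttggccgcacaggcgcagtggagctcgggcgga
ABCA1, chr9:104928156-104928405, minus strand: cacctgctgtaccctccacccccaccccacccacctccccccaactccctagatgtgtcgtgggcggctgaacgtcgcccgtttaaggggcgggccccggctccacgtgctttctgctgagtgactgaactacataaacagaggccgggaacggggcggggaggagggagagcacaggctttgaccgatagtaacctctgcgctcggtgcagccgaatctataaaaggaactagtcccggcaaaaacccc

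HMGCS1 and INSIG1, whose mRNA was lower with enzalutamide, hold 2 NF-Y boxes and 1 NF-Y box in these stretches, and INSIG2 and ABCA1, whose mRNA was higher, hold none. A RefSeq window of 250 bases before to 50 bases after a start was given for 27 of the 31 members, and where a gene has several windows a motif was counted if any of them held it, on either strand. The NF-Y box was found in 18 of the 27 members, which were 14 of 17 that were lower with enzalutamide, 1 of 3 that were higher (TM7SF2) and 3 of 7 that were not called. Of all 27305 genes with a window 39.7% held it, and of the 9856 tested genes with a window 43.7%. The sterol regulatory element TCACNCCAC was found in 1 member, SREBF2, as TCACCCCAC at bases 133 to 125 before the start, and in 1.44% of the tested genes. The Sp1 box GGGCGG was found in 25 of 27 members and 76.6% of the tested genes, the E-box CACGTG in 5 members and 12.7%, and AGAACA, the hexamer of the androgen response element, in 1 member (PMVK) and 12.5%. These are matches of letters in a short window, given as a description and not as sites of binding. No motif contains another, but matches of different motifs may share bases, and each was counted on its own.

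The libraries held 15830745 to 24316740 reads with R1881 + DMSO (median 23194075) and 21188661 to 25416052 with R1881 + enzalutamide (median 21893693). The values are CPM (counts scaled to library size, with sizes adjusted by the authors). The androgen-induced genes KLK2, FKBP5 and TMPRSS2 fell from means of 463, 1502 and 850.3 CPM to 15.2, 46.8 and 71.5 CPM, a check of the labels. Of 6 luminal prostate markers all were present, at a summed 4899 to 5503 CPM with R1881 + DMSO and 2793 to 2851 CPM with R1881 + enzalutamide. Of 11 markers of other cell types 6 had no row (KRT5, TP63, DCN, PTPRC, CD3E and PECAM1). The other 5 summed to 10.1 to 14.6 CPM with R1881 + DMSO and 24.1 to 30.3 CPM with R1881 + enzalutamide. Of the 5, 4 were called higher and KRT14 lower, where 29.8% of all tested genes were higher and 32.7% lower. LUM did not exceed 0.309 CPM with R1881 + DMSO, nor KRT14 0.279 CPM with R1881 + enzalutamide. Each thus passed the filter (a mean of at least 0.5 CPM) only through its other group. The directions of LUM and KRT14 therefore followed from the filter. The part of the markers of other cell types in the results below was not tested. All 12 proliferation markers were lower with enzalutamide, where 32.7% of all tested genes were. These markers summed to 575 to 652 CPM against 1031 to 1259 CPM, and in bulk RNA fewer cells of a kind and less RNA per cell cannot be told apart. Their part in the results below was not tested either.

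A pair of libraries stood apart for these genes. R1881 + DMSO replicate 6 was the highest or lowest of its group for 22 of 31 members, and R1881 + enzalutamide replicate 2 for 26. Both were high where the transcripts are rich in G and C. Of the 15 members with a GC content of at least 50%, 14 were above the median of the other libraries in the former (median log2 ratio 0.35) and 15 in the latter (0.26). Among the other 16 members, 12 and 14 were below it (median log2 ratio -0.096 and -0.13). With both libraries left out the treatment calls were 4 higher and 21 lower, against 4 and 20 with them, the added gene being SREBF1. The R1881 + DMSO libraries also carry numbers 51 to 55 and 71 to 75 in the labels, and the R1881 + enzalutamide libraries 81 to 85. The sources used here do not say what these numbers mark. No such series holds both treatments, so series and treatment cannot be told apart. For the 31 members the difference between the R1881 + DMSO series was therefore computed as well.

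**Figure D1:**
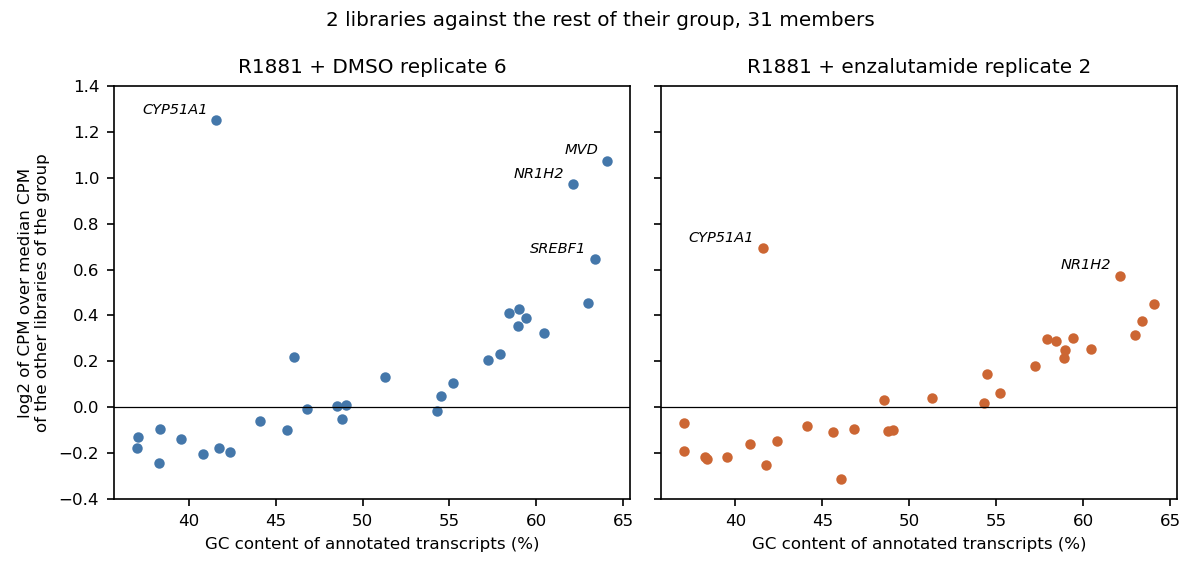
Log2 of CPM over the median CPM of the other libraries of the group (y) against the GC content of the annotated transcripts in percent (x), for R1881 + DMSO replicate 6 (left) and R1881 + enzalutamide replicate 2 (right), each point 1 of 31 members. In both libraries members above 50% GC lie mostly above 0 and members below 50% mostly below it, and CYP51A1, with 8 to 38 reads a library, lies high in both.

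The first comparison asked how the mRNA of the pathway differed when the androgen receptor was inhibited in the presence of R1881. Of the 31 members 20 fell, 4 rose and 7 were not called (limma on log2(CPM + 0.5), Benjamini-Hochberg adjusted p under 0.05 over 17046 genes). The calls have to be read against all genes tested, of which 62.5% passed, 32.7% lower and 29.8% higher. With library totals set to 1000000 that split was 4288 genes lower and 6641 higher, against 5577 and 5083 as deposited, and the members were still 20 lower and 5 higher, NPC2 being added. With the further demand of a change of at least 1.5-fold, 15 members were lower and 4 higher, where 9.55% and 9.06% of all tested genes were. The groups did not overlap for 18 lower members and 4 higher members, where 20.1% of tested genes were lower and 17.1% higher without overlap. The median log2 fold change was -0.56 over the members and -0.01 over all tested genes. The members that rose were TM7SF2, INSIG2, ABCA1 and ABCG1.

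**Figure D2:**
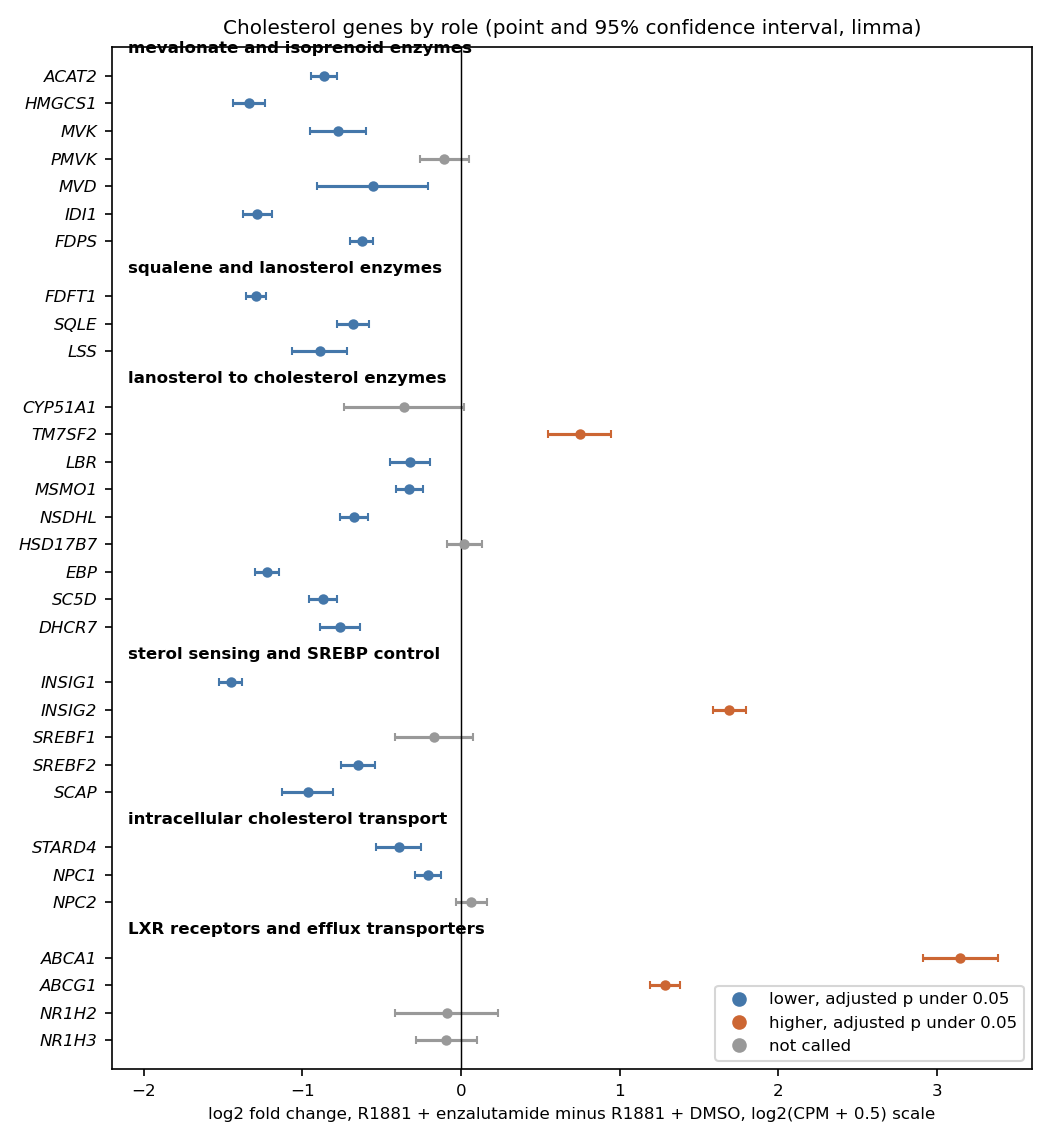
Log2 fold change of R1881 + enzalutamide minus R1881 + DMSO (x, log2(CPM + 0.5) scale) for each of 31 members (rows, grouped by role), with the 95% confidence interval from limma. Most enzymes lie left of 0, INSIG1 at -1.45 and INSIG2 at 1.69 lie on opposite sides, and ABCA1 at 3.15 lies farthest to the right.

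The enzymes of synthesis were lower as a group. Of the 19, 15 fell, 1 rose (TM7SF2) and 3 were not called (PMVK, CYP51A1 and HSD17B7), with a median log2 fold change of -0.68. Of all tested genes 32.7% were called lower and 29.8% higher. The summed CPM of the 19 was 2247 ± 30.3 (SD, n = 10) with R1881 + DMSO and 1270 ± 15.4 (SD, n = 5) with R1881 + enzalutamide. The lowest R1881 + DMSO library was at 2192 CPM and the highest R1881 + enzalutamide library at 1291 CPM, so that the sums did not overlap.

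The mevalonate part opens with ACAT2, which joins molecules of acetyl-CoA. For ACAT2 R1881 + DMSO values had a lowest of 95.7, a median of 104 and a highest of 109.9 CPM, against 59.2, 53.96, 57.4, 59.02 and 52.7 CPM with R1881 + enzalutamide. For ACAT2 the mean was lower with enzalutamide by a log2 fold change of -0.86 ± 0.039 (SE, adjusted p = 5.36e-14), or 1.82-fold in mean CPM. HMGCS1, the next enzyme, makes HMG-CoA and had the largest decrease among the 19 enzymes. With R1881 + DMSO HMGCS1 was at 225 CPM in the lowest, 257 in the median and 291 in the highest library, and with R1881 + enzalutamide it was at 105, 94.1, 105, 104 and 106 CPM. HMGCS1 fell to a mean 2.54-fold lower (log2 fold change -1.34 ± 0.049, SE; adjusted p = 1.29e-15). All 5 R1881 + enzalutamide libraries lay far below the lowest R1881 + DMSO library, and replicate 2 was the lowest of the 5. HMGCS1 lies at chr5:43287470-43313512 (GRCh38), and 37.7% of its exon bases overlap an annotated RNA gene on the opposite strand.

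Of the 3 enzymes that phosphorylate and decarboxylate mevalonate, 2 fell and 1 was not called, where 32.7% of all tested genes were lower. MVK, mevalonate kinase, was at 20.1 to 31.1 CPM (median 23.9) with R1881 + DMSO and at 12.3, 16.3, 13.1, 13.4 and 14.2 CPM with R1881 + enzalutamide. The mean of MVK was 1.74-fold lower with enzalutamide (log2 fold change -0.78 ± 0.084, SE; adjusted p = 7.75e-08). MVD, which makes isopentenyl diphosphate, was at 8.69 to 20.4 CPM (median 10.01) with R1881 + DMSO and at 5.45, 9.58, 7.69, 6.33 and 8.35 CPM with R1881 + enzalutamide. For MVD the mean was lower with enzalutamide by a log2 fold change of -0.56 ± 0.17 (SE, adjusted p = 0.00679), or 1.53-fold in mean CPM. The MVD groups overlapped, since R1881 + enzalutamide replicate 2 lay above the lowest R1881 + DMSO value, and the highest R1881 + DMSO value was that of replicate 6. PMVK, phosphomevalonate kinase, which acts between them, was not called at 33.97 ± 4.18 CPM (SD, n = 10) with R1881 + DMSO and 31.5 ± 2.72 CPM (SD, n = 5) with R1881 + enzalutamide (log2 fold change -0.10, 95% confidence interval -0.26 to 0.051, adjusted p = 0.232).

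IDI1, which isomerizes isopentenyl diphosphate, fell as well. IDI1 spanned 190.3 to 221 CPM (median 208) in R1881 + DMSO libraries, where the R1881 + enzalutamide libraries gave 88.4, 75.4, 86.7, 91.4 and 85.4 CPM. IDI1 fell to a mean 2.44-fold lower (log2 fold change -1.28 ± 0.044, SE; adjusted p = 3.80e-16). FDPS builds farnesyl diphosphate. FDPS ran from 132 CPM over a median of 139.5 to 149 CPM in the 10 R1881 + DMSO libraries, and was at 93.4, 91.6, 91.02, 89.8 and 88.8 CPM in the 5 R1881 + enzalutamide libraries. The mean of FDPS was 1.55-fold lower with enzalutamide (log2 fold change -0.63 ± 0.034, SE; adjusted p = 1.23e-12). FDPS has 8 and IDI1 has 3 annotated pseudogenes, with which the counting could have split their reads, as have HSD17B7 and CYP51A1, with 3 each.

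FDFT1, squalene synthase, is the step that commits farnesyl diphosphate to sterols. For FDFT1 R1881 + DMSO values had a lowest of 475, a median of 487 and a highest of 516 CPM, against 209, 187, 202, 200.4 and 199 CPM with R1881 + enzalutamide. For FDFT1 the mean was lower with enzalutamide by a log2 fold change of -1.29 ± 0.03 (SE, adjusted p = 5.09e-19), or 2.45-fold in mean CPM. Neither group spread far, and the difference was many times the spread between libraries. SQLE, squalene epoxidase, and LSS, lanosterol synthase, follow it. With R1881 + DMSO SQLE was at 62.7 CPM in the lowest, 71.5 in the median and 77.3 in the highest library, and with R1881 + enzalutamide it was at 44.8, 40.7, 46.4, 45.5 and 41.95 CPM. SQLE fell to a mean 1.61-fold lower (log2 fold change -0.68 ± 0.048, SE; adjusted p = 9.13e-11). LSS spanned 106 to 161 CPM (median 122) in R1881 + DMSO libraries, where the R1881 + enzalutamide libraries gave 58.4, 79.4, 65.9, 64 and 69.2 CPM. The mean of LSS was 1.86-fold lower with enzalutamide (log2 fold change -0.89 ± 0.083, SE; adjusted p = 7.85e-09). All 3 enzymes between farnesyl diphosphate and lanosterol were thus lower without overlap, where 20.1% of all tested genes were. In LSS the highest value of each group was that of the library that stood apart.

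Past lanosterol the enzymes diverged, with 6 of 9 lower, 1 higher and 2 not called, where 32.7% of all tested genes were lower and 29.8% higher. EBP, which shifts a double bond of the sterol ring, had the largest decrease among them. EBP ran from 91.2 CPM over a median of 96.1 to 103 CPM in the 10 R1881 + DMSO libraries, and was at 39.5, 41.96, 43.1, 39.3 and 40.9 CPM in the 5 R1881 + enzalutamide libraries. For EBP the mean was lower with enzalutamide by a log2 fold change of -1.22 ± 0.037 (SE, adjusted p = 4.00e-17), or 2.35-fold in mean CPM. Of its exon bases 36.4% are shared with another annotated gene on the same strand. SC5D, the desaturase that follows EBP, was at 206 to 248 CPM (median 224) with R1881 + DMSO and at 123, 119, 126, 128 and 123 CPM with R1881 + enzalutamide. SC5D fell to a mean 1.84-fold lower (log2 fold change -0.87 ± 0.042, SE; adjusted p = 1.62e-13). DHCR7, the reductase whose product is cholesterol, was at 129 to 172 CPM (median 148) with R1881 + DMSO and at 83.2, 103, 84.1, 82.4 and 86.6 CPM with R1881 + enzalutamide. The mean of DHCR7 was 1.70-fold lower with enzalutamide (log2 fold change -0.76 ± 0.061, SE; adjusted p = 6.91e-10). Its R1881 + enzalutamide replicate 2 was set off from the other 4 libraries. NSDHL, which takes part in the removal of methyl groups from the sterol ring, was at 39.7 to 47.1 CPM (median 43.1) with R1881 + DMSO and at 26.7, 27.3, 27.7, 26.4 and 25.9 CPM with R1881 + enzalutamide. For NSDHL the mean was lower with enzalutamide by a log2 fold change of -0.67 ± 0.043 (SE, adjusted p = 1.43e-11), or 1.61-fold in mean CPM. MSMO1, which oxidizes these methyl groups, was at 104 ± 3.98 CPM (SD, n = 10) with R1881 + DMSO and 82.9 ± 5.68 CPM (SD, n = 5) with R1881 + enzalutamide (log2 fold change -0.33 ± 0.041, SE; adjusted p = 7.00e-07).

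TM7SF2 and LBR are both sterol reductases of the same step, and they moved in opposite directions. For TM7SF2 R1881 + DMSO values had a lowest of 68.1, a median of 82.1 and a highest of 112 CPM, against 119, 171, 147, 131 and 144 CPM with R1881 + enzalutamide. TM7SF2 rose to a mean 1.68-fold higher (log2 fold change 0.75 ± 0.096, SE; adjusted p = 8.14e-07). None of the other 18 enzymes was called higher, and the TM7SF2 groups did not overlap. The highest R1881 + DMSO value was again that of replicate 6. LBR, which is also a protein of the inner nuclear membrane, was at 43.9 to 56.1 CPM (median 49.5) with R1881 + DMSO and at 42.8, 34.9, 42.3, 40.6 and 36.5 CPM with R1881 + enzalutamide. The mean of LBR was 1.25-fold lower with enzalutamide (log2 fold change -0.32 ± 0.061, SE; adjusted p = 1.20e-04). The remaining enzymes were not called. HSD17B7, a ketone reductase that acts with NSDHL, was at 25.5 ± 1.65 CPM (SD, n = 10) with R1881 + DMSO and 25.9 ± 1.58 CPM (SD, n = 5) with R1881 + enzalutamide (log2 fold change 0.02, 95% confidence interval -0.091 to 0.13). CYP51A1, which removes the first methyl group from lanosterol, was counted at 0.866 ± 0.407 CPM (SD, n = 10) with R1881 + DMSO and 0.537 ± 0.164 CPM (SD, n = 5) with R1881 + enzalutamide from 8 to 38 reads a library (log2 fold change -0.36, 95% confidence interval -0.73 to 0.021). For CYP51A1 68.2% of the exon bases are shared with other annotated genes on the same strand, so its value is uncertain.

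**Figure D3:**
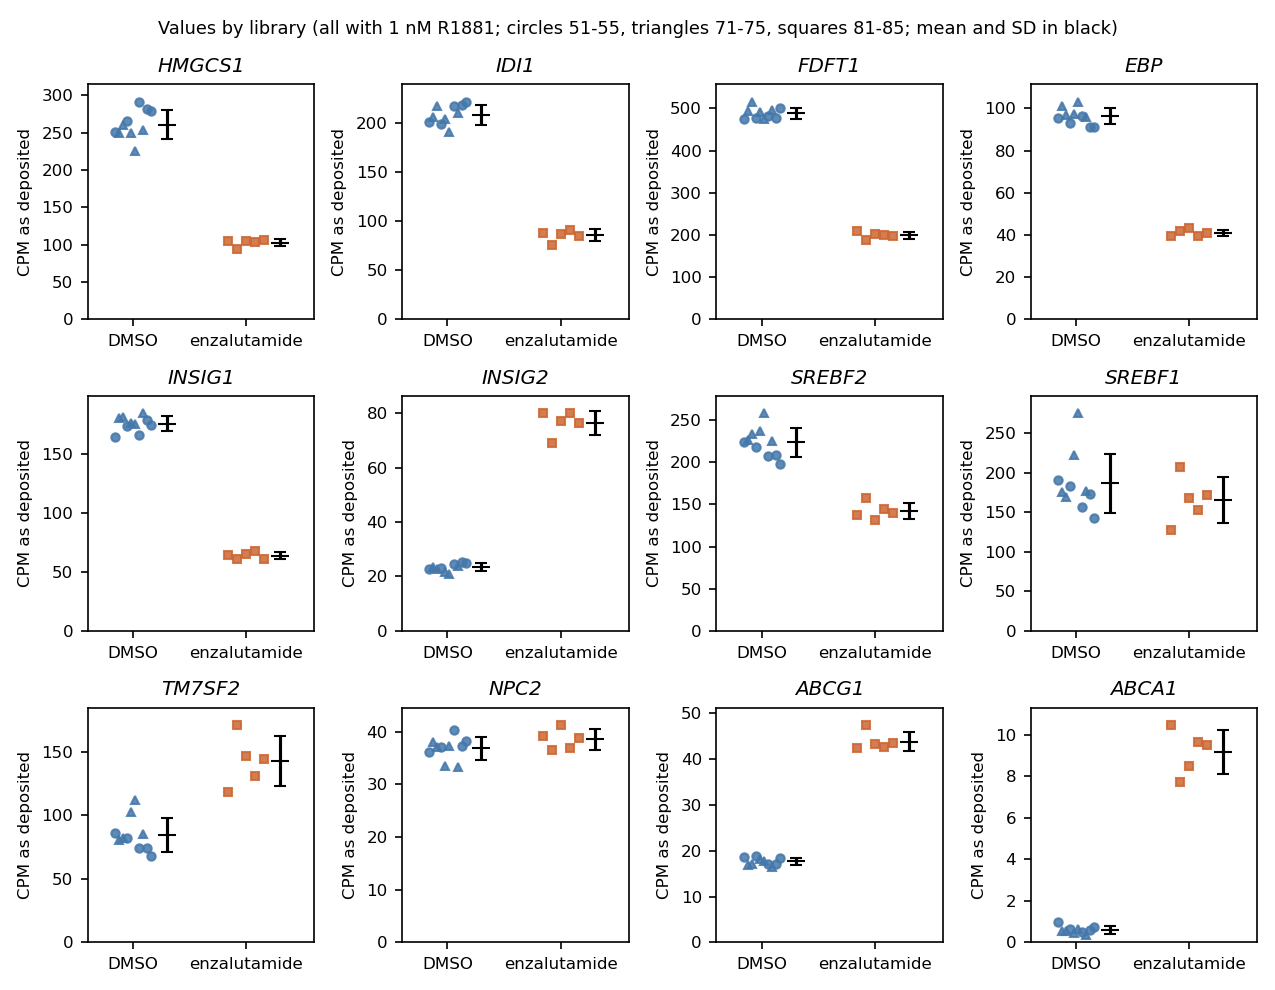
Deposited CPM (y) of 12 members in each of 10 R1881 + DMSO libraries (circles, numbers 51 to 55, and triangles, 71 to 75) and 5 R1881 + enzalutamide libraries (squares, 81 to 85), with mean and SD in black. HMGCS1, IDI1, FDFT1, EBP, INSIG1 and SREBF2 are lower, INSIG2, TM7SF2, ABCG1 and ABCA1 are higher, and SREBF1 and NPC2 overlap between the groups.

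The genes of sterol sensing did not move together. INSIG1, an anchor that keeps SCAP in the endoplasmic reticulum and is itself a target of SREBP, had the largest decrease of all 31 members. With R1881 + DMSO INSIG1 was at 165 CPM in the lowest, 176 in the median and 184 in the highest library, and with R1881 + enzalutamide it was at 64.7, 60.6, 64.8, 67.9 and 61.3 CPM. For INSIG1 the mean was lower with enzalutamide by a log2 fold change of -1.45 ± 0.035 (SE, adjusted p = 1.00e-18), or 2.75-fold in mean CPM. INSIG2, the other such anchor, moved the opposite way. INSIG2 spanned 20.8 to 25.1 CPM (median 23.3) in R1881 + DMSO libraries, where the R1881 + enzalutamide libraries gave 79.9, 68.8, 77.1, 79.9 and 76.3 CPM. INSIG2 rose to a mean 3.28-fold higher (log2 fold change 1.69 ± 0.05, SE; adjusted p = 3.70e-17). Every R1881 + enzalutamide library was thus below every R1881 + DMSO library for INSIG1 and above every one for INSIG2. In CPM per kilobase of exon, the scale on which levels of different genes can be set side by side, INSIG1 was at 48.02 and INSIG2 at 5.90 with R1881 + DMSO, and at 17.5 ± 0.806 and 19.3 ± 1.14 (SD, n = 5) with R1881 + enzalutamide, so that the order of the means turned.

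SREBF2, which encodes SREBP2, and SCAP, its escort, both fell. SREBF2 ran from 198 CPM over a median of 224 to 258 CPM in the 10 R1881 + DMSO libraries, and was at 138, 157, 132, 144 and 139.6 CPM in the 5 R1881 + enzalutamide libraries. The mean of SREBF2 was 1.57-fold lower with enzalutamide (log2 fold change -0.65 ± 0.052, SE; adjusted p = 6.26e-10). For SCAP R1881 + DMSO values had a lowest of 109, a median of 129.9 and a highest of 159 CPM, against 58.8, 74.9, 62.2, 63.3 and 64.8 CPM with R1881 + enzalutamide. For SCAP the mean was lower with enzalutamide by a log2 fold change of -0.97 ± 0.077 (SE, adjusted p = 6.67e-10), or 1.97-fold in mean CPM. In both genes the highest value of each group came from the library that stood apart. SREBF1, which encodes SREBP1, a driver of fatty acid genes, ranged widely. With R1881 + DMSO SREBF1 was at 144 CPM in the lowest, 177 in the median and 275 in the highest library, and with R1881 + enzalutamide it was at 128, 208, 168, 153 and 172 CPM. It was not called (log2 fold change -0.17, 95% confidence interval -0.41 to 0.077, adjusted p = 0.222). With R1881 + DMSO replicate 6 and R1881 + enzalutamide replicate 2 left out, its log2 fold change was -0.19 and it passed the threshold (adjusted p = 0.0459).

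The genes of cholesterol transport inside the cell all stayed within 1.5-fold. STARD4, a carrier of cholesterol in the cytosol, was at 22.5 to 32.04 CPM (median 26.3) with R1881 + DMSO and at 21.1, 18, 19.3, 22.5 and 20.7 CPM with R1881 + enzalutamide. STARD4 fell to a mean 1.32-fold lower (log2 fold change -0.39 ± 0.069, SE; adjusted p = 4.47e-05). The highest R1881 + enzalutamide value lay just above the lowest R1881 + DMSO value. NPC1, which exports cholesterol from late endosomes and lysosomes, was at 85.1 to 104 CPM (median 92.4) with R1881 + DMSO and at 79.6, 82.2, 75.8, 83.9 and 81.4 CPM with R1881 + enzalutamide. The mean of NPC1 was 1.15-fold lower with enzalutamide (log2 fold change -0.20 ± 0.039, SE; adjusted p = 1.25e-04). NPC2, its soluble partner, was at 36.8 ± 2.13 CPM (SD, n = 10) with R1881 + DMSO and 38.5 ± 1.96 CPM (SD, n = 5) with R1881 + enzalutamide and was not called (log2 fold change 0.066, 95% confidence interval -0.032 to 0.16). Under TMM scaling of the libraries NPC2 was higher by 0.11 on the log2 scale (adjusted p = 0.0373), and with library totals set to 1000000 by 0.16 (adjusted p = 0.00408).

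The efflux transporters rose while the receptors that drive them were not called. ABCA1, which loads cholesterol onto apolipoprotein A-I, was barely detected with R1881 + DMSO. ABCA1 spanned 0.354 to 0.968 CPM (median 0.579) in R1881 + DMSO libraries, where the R1881 + enzalutamide libraries gave 10.5, 7.72, 8.51, 9.66 and 9.53 CPM. These R1881 + DMSO values stand for 7 to 20 reads a library, and the R1881 + enzalutamide values for 166 to 243. Mean CPM was 15.4-fold higher with enzalutamide, whereas the log2 fold change of 3.15 ± 0.11 (SE, adjusted p = 1.03e-15) is on the log2(CPM + 0.5) scale, which understates the change of a gene so low. ABCG1, which passes cholesterol to high-density lipoprotein, was at 16.5 to 18.8 CPM (median 17.5) with R1881 + DMSO and at 42.3, 47.4, 43.3, 42.5 and 43.6 CPM with R1881 + enzalutamide. For ABCG1 the mean was higher with enzalutamide by a log2 fold change of 1.29 ± 0.046 (SE, adjusted p = 7.57e-16), or 2.48-fold in mean CPM. For both transporters all 5 R1881 + enzalutamide libraries lay above all 10 of the other group.

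NR1H3 and NR1H2 encode LXR alpha and LXR beta. NR1H3 was at 10.1 ± 1.51 CPM (SD, n = 10) with R1881 + DMSO and 9.41 ± 0.713 CPM (SD, n = 5) with R1881 + enzalutamide (log2 fold change -0.091, 95% confidence interval -0.29 to 0.10). NR1H2 was at 21.9 ± 6.51 CPM (SD, n = 10) with R1881 + DMSO and 20.3 ± 4.63 CPM (SD, n = 5) with R1881 + enzalutamide (log2 fold change -0.089, 95% confidence interval -0.41 to 0.23), and 22.1% of its exon bases overlap NAPSA on the opposite strand. The sign of NR1H2 turned under 3 other settings. NR1H3 turned to 0.042 against libraries 51 to 55 alone and was called lower against libraries 71 to 75 alone (log2 fold change -0.22, adjusted p = 0.0347), so neither gene is given a direction.

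**Figure D4:**
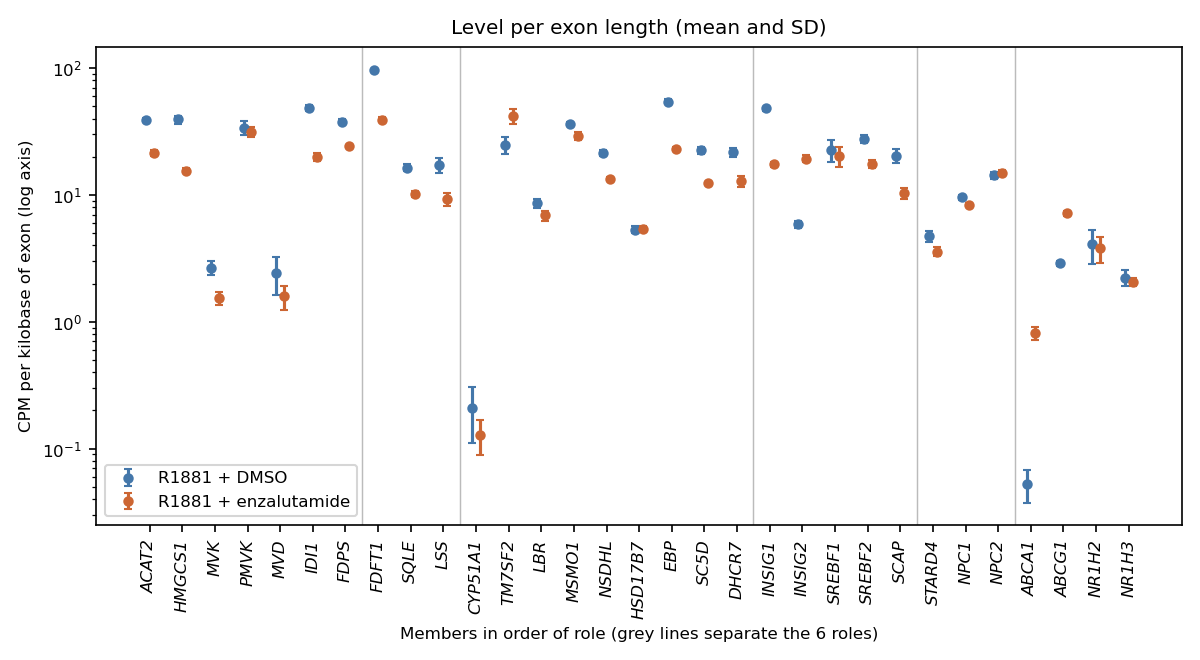
Mean CPM per kilobase of exon with SD (y, log axis) for each of 31 members in order of role (x), with 10 R1881 + DMSO libraries in blue and 5 R1881 + enzalutamide libraries in orange. FDFT1 is the highest member with R1881 + DMSO. TM7SF2 and FDFT1 lie side by side at the top with R1881 + enzalutamide (their order turns without R1881 + enzalutamide replicate 2). ABCA1 and CYP51A1 are the lowest. The value of CYP51A1 is uncertain, since 68.2% of its exon bases are shared with other annotated genes on the same strand.

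Per kilobase of annotated exon, FDFT1 was the most abundant member with R1881 + DMSO, at 96.1 ± 2.69 CPM per kilobase (SD, n = 10), followed by EBP at 54.4 ± 2.16. IDI1 at 48.5 ± 2.37 and INSIG1 at 48.02 ± 1.75 came next and did not differ beyond their spread. ABCA1 was the lowest at 0.0526 ± 0.0154. With R1881 + enzalutamide TM7SF2 moved from rank 11 to rank 1, at 41.8 ± 5.75 CPM per kilobase (SD, n = 5), next to FDFT1 at 39.3 ± 1.55, a difference within the spread of TM7SF2. Without R1881 + enzalutamide replicate 2 the order turned, with FDFT1 at 39.9 ± 0.915 and TM7SF2 at 39.6 ± 3.81 CPM per kilobase (SD, n = 4). INSIG1 moved from rank 4 to 12 and INSIG2 from rank 22 to 10, or to 11 and 9 without that library. These levels use the exon length of all annotated transcripts, not of those that LNCaP cells use.

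The second comparison set the R1881 + DMSO libraries 71 to 75 against 51 to 55, cells under the same labelled treatment. Of 31 members 1 was called higher (SCAP) and 0 lower by limma, where 3.17% of all tested genes were called in either direction. With edgeR 1 member was called higher and 0 lower, and with DESeq2 5 and 1. At an unadjusted limma p under 0.05, 11 members were higher and 3 lower, where 10.1% of all tested genes were higher and 13.8% lower. The 11 higher members all had a GC content of at least 55.2%, and the 3 lower ones of at most 41.8%. R1881 + DMSO replicate 6, which stood apart for GC-rich members, is library 73 and thus belongs to libraries 71 to 75. The part of GC content in the difference between the series was not tested. SCAP was at a mean of 115.9 CPM in libraries 51 to 55 and 139 CPM in libraries 71 to 75 (log2 difference 0.26, adjusted p = 0.0357), while the R1881 + enzalutamide mean was 64.8 CPM, below both. This call was lost, with 0 members higher, when any of R1881 + DMSO replicates 4, 5, 7, 8, 9 or 10 was left out. The largest log2 difference between the series was 0.45, in MVD (adjusted p = 0.118). For LBR, SREBF2 and NPC1 the series did not overlap, LBR being lower and the others higher in libraries 71 to 75, where 4.76% of all tested genes were lower and 1.91% higher without overlap. None of the 3 was called (for LBR means of 52.5 and 46.2 CPM, adjusted p = 0.0554). The treatment calls were 4 higher and 20 lower against libraries 51 to 55 alone, and 4 higher and 21 lower against libraries 71 to 75 alone. Neither series holds R1881 + enzalutamide libraries, so series was not held constant in these fits. Of the 12 proliferation markers 6 were called lower in libraries 71 to 75 than in 51 to 55, where 401 of all 17046 tested genes were called lower. The part of these markers in the differences between the series was not tested. The 2 comparisons share the R1881 + DMSO libraries, so their differences are given only side by side.

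**Figure D5:**
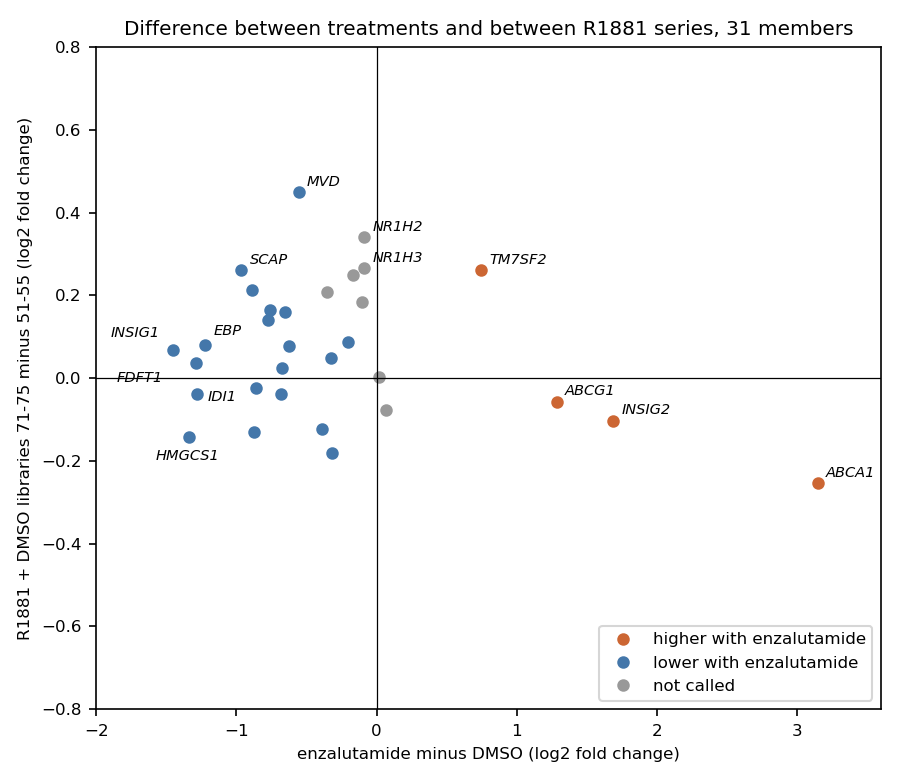
Log2 fold change between the R1881 + DMSO series (y, libraries 71 to 75 minus 51 to 55) against the log2 fold change between the treatments (x, R1881 + enzalutamide minus R1881 + DMSO) for each of 31 members. The points spread from -1.45 to 3.15 between the treatments and stay within 0.45 of 0 between the series.

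Other genes of the pathway were taken from lists written by role, and 65 of 73 listed genes had a row and were tested. Of the 65, 27 were lower, 16 higher and 22 not called, where 32.7% of all tested genes were lower and 29.8% higher. The median log2 fold change of the 65 was -0.09, and 9 of the 27 lower genes were of fatty acid synthesis. Fatty acid synthesis, which is driven by SREBP as well, had the median log2 fold change farthest from 0 among these lists, at -0.95. Of its 11 genes 9 were lower and 2 higher, where 32.7% and 29.8% of all tested genes were. ELOVL5, a fatty acid elongase, was at 1174 ± 67.5 CPM (SD, n = 10) and 342 ± 19.1 CPM (SD, n = 5), a log2 fold change of -1.78. FASN, fatty acid synthase, had a log2 fold change of -1.57 and a wide spread, from 498 to 1330 CPM in R1881 + DMSO libraries and 171 to 355 CPM in R1881 + enzalutamide libraries. The members of this list that rose were MID1IP1 (log2 fold change 0.34) and ELOVL6 (0.29).

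Of 8 lipoprotein receptors 2 were lower, 2 higher and 4 not called, shares that lie near or below those of all tested genes (32.7% lower and 29.8% higher). VLDLR, the receptor of very low density lipoprotein, was at 48.4 ± 4.15 CPM (SD, n = 10) with R1881 + DMSO and fell to 17.1 ± 1.33 CPM (SD, n = 5), a log2 fold change of -1.48, and LRP8 by 0.75 on the log2 scale. SORL1 was at 14.05 ± 1.62 CPM (SD, n = 10) with R1881 + DMSO and rose to 39.9 ± 1.46 CPM (SD, n = 5), a log2 fold change of 1.48, and LRP1 rose by 0.99 on the log2 scale. Of 3 tested genes of sterol esterification and hydrolysis, SOAT1, which esterifies cholesterol for storage, fell from 102.6 to 57.1 CPM (log2 fold change -0.84), NCEH1, an ester hydrolase, rose by 0.22 on the log2 scale, and LIPA, the lysosomal lipase, was not called.

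Among 12 sterol transfer proteins, 5 were lower, 3 higher and 4 not called, where 32.7% of all tested genes were lower and 29.8% higher. GRAMD1C, which carries cholesterol from the plasma membrane to the endoplasmic reticulum, had the largest increase of the 65 genes, with 8.71 ± 0.547 CPM (SD, n = 10) with R1881 + DMSO against 49.6 ± 2.50 CPM (SD, n = 5), a log2 fold change of 2.45. STARD3NL and OSBPL8 fell, with log2 fold changes of -1.05 and -0.72, and STARD3 rose by 0.39. OSBPL8 was also lower in R1881 + DMSO libraries 71 to 75 than in 51 to 55 (means of 225.1 and 259.4 CPM, log2 difference -0.21, adjusted p = 0.0320), both above its R1881 + enzalutamide mean of 146.7 CPM. The proteases and ubiquitin ligases of SREBP control had 4 of 10 genes higher, 4 lower and 2 not called, with a median log2 fold change of -0.04. These counts have to be read against the same shares of all tested genes, 29.8% higher and 32.7% lower. SPRING1, a cofactor of SREBP processing listed under an older symbol, rose by 0.72 on the log2 scale and PAQR3 by 0.39, while MBTPS2, a protease that releases SREBP, and ERLIN1 fell, with log2 fold changes of -0.52 and -0.15. MBTPS2 too was lower in libraries 71 to 75 than in 51 to 55 (means of 102.3 and 115.5 CPM, log2 difference -0.17, adjusted p = 0.0292), with an R1881 + enzalutamide mean of 75.5 CPM. Of the 65 related genes, 2 were called lower (OSBPL8 and MBTPS2) and 1 higher between the series, where 3.17% of all tested genes were called in either direction. The gene called higher was FADS2, a fatty acid desaturase named after its values were seen (log2 difference 0.24, adjusted p = 0.0232).

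Of 11 genes of the isoprenoid branch, which leaves the pathway before sterols, 4 were lower, 1 higher and 6 not called, and none reached 1.5-fold. Of all tested genes 32.7% were lower and 29.8% higher. PDSS2, a subunit of the enzyme that makes the tail of ubiquinone, rose by 0.58 on the log2 scale, and PDSS1, its partner subunit, and GGPS1, which makes geranylgeranyl diphosphate, had log2 fold changes of -0.44 and -0.31. RABGGTB, a subunit of a Rab geranylgeranyl transferase, was not called (log2 fold change 0.058). Of 6 other LXR targets and ABC transporters 2 were higher, 2 lower and 2 not called, to be read against the same shares of all tested genes. MYLIP, a ubiquitin ligase of lipoprotein receptors induced by LXR, had a log2 fold change of 0.48 and LPCAT3, a phospholipid enzyme induced by LXR, of 0.20. SMPDL3A, listed as an LXR target as well, was called lower (log2 fold change -0.22), as was the ABC transporter ABCA7 (-0.32). Of 4 oxysterol enzymes CYP39A1 rose from 6.42 to 14.8 CPM, a log2 fold change of 1.14, and HSD3B7, EBPL and CYP46A1 were not called (0.17, -0.027 and -0.11).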

How the data were processed

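Polyadenylated RNA of LNCaP cells was sequenced from 15 libraries prepared with a stranded kit. According to the study's methods and the submitters' processing notes, the authors made FASTQ files with bcl2fastq 2.17, used STAR to map the single-end reads to GRCh38, and used featureCounts of the Subread package to count them. The versions of STAR and featureCounts, the annotation, the use of strand in counting and the rule by which 17272 genes were kept were not given in the sources that could be used. Without the strand setting, reads of a gene and of an antisense partner cannot be told apart. The deposited table holds for each gene a normalized signal that the authors call CPM, on library sizes they had adjusted, since the column sums differ. Divided by what 1 read is worth in its library, 100% of the values came out whole (tolerance 0.01 reads), and these reads gave the depths. No column without a sample was present. Groups follow the sample labels, and the methods text gives the numbers of libraries of the groups the other way round. The study calls the libraries biological replicates, and nothing else ties them to separate cultures, so p-values measure the spread between these libraries. In all 55 pairs of libraries within a group the counts differed beyond sampling noise (lowest chi-square per gene 1.63).

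Differences were tested with limma 3.58.1 in R 4.3.3 on log2(CPM + 0.5), with a trended variance, treatment as the only term and a mean CPM of at least 0.5, and p-values were adjusted by Benjamini-Hochberg over 17046 genes with a threshold of 0.05. The fit was tested on simulated reads for the treatment comparison over 17046 genes, where 97% of 200 genes changed 2-fold and 7 unchanged genes were called. Levels between genes are CPM per kilobase of exon of GENCODE v44 on GRCh38, and GC content is that of its transcripts. Promoter windows are those of RefSeq. Alternatives were the pseudocount, the filter, the scaling, edgeR 4.0.16 and DESeq2 1.42.0 on the recovered reads, a replicate block, either R1881 series alone and each library left out in turn. Counts over the related genes and the removal of the 2 libraries that stood apart, also for levels per kilobase, were added after seeing the data. The members, the other lists and the rules were chosen with earlier results of these data known. Named genes are all members, the 2 highest and 2 lowest of each related list by log2 fold change, and 3 androgen-induced genes. Some genes of the pathway are not reported here. The number of libraries limits the precision, as does counting error where reads are few.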

Additional observations from a re-analysis of the deposited data

Results flagged for a closer look

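In 62 sets of values (31 members in each of 2 groups), 5 had an end library set off from the others by more than Dixon's critical value, where chance gives about 3.1. In R1881 + enzalutamide replicate 2, HMGCS1 was at 94.1 CPM and the nearest other library at 103.8 CPM, and MSMO1 was at 73.0 CPM with the nearest at 83.7 CPM. In the same library DHCR7 was at 102.8 CPM with the nearest at 86.6 CPM, and ABCG1 was at 47.4 CPM with the nearest at 43.6 CPM. In R1881 + DMSO replicate 6, NR1H2 was at 38.4 CPM and the nearest other library at 27.0 CPM. With both libraries left out, HMGCS1, MSMO1 and DHCR7 were still called lower and ABCG1 higher, and NR1H2 was still not called.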

How the results depend on the processing

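Under 29 other settings the number of members called lower stayed between 20 and 21 and the number called higher between 3 and 5, and with a change of at least 1.5-fold between 12 and 16 and between 3 and 4. Related genes called lower were 22 to 29 and higher 15 to 22. The 3 came from a mean CPM of at least 5, which leaves out ABCA1 and CYP51A1, and 5 includes NPC2. The replicate block, fitted on the 10 libraries with a number in both groups, gave 20 members lower and 4 higher. The numbers do not pair the libraries (correlations of same-numbered deviations from -0.068 to 0.074, and 1 of 5 libraries closest to its own number), and over all genes 4787 were higher and 5261 lower with the block and 4889 and 5370 without it. With library totals set to 1000000, the calls over all genes were 6641 higher and 4288 lower against 5083 and 5577, with a median log2 fold change of 0.075. The sign of the log2 fold change turned for NR1H2 with totals set to 1000000 (0.0022), against libraries 51 to 55 alone (0.081) and without R1881 + DMSO replicate 6 (-0.21 to 0.0041 with each library left out in turn), for NR1H3 against libraries 51 to 55 alone (0.042), and for HSD17B7 without R1881 + DMSO replicate 1 or R1881 + enzalutamide replicate 3 (-0.011 to 0.039 with each library left out in turn). None of these passed the threshold. Calls gained were NR1H3 against libraries 71 to 75 alone (-0.22, adjusted p = 0.0347) and CYP51A1 without R1881 + DMSO replicate 3 (-0.43, adjusted p = 0.0355). Between the R1881 series, members called higher were 2 with a mean of at least 5 CPM and 5 with DESeq2, and members called lower were 1 in each of these and with totals set to 1000000, while leaving out 1 library gave 0 to 3 higher (3 without replicate 1, 2 without replicate 3, 0 without replicates 4, 5, 7, 8, 9 or 10) and 0 to 1 lower. The causes were not tested. Depth limits ABCA1, at 7 to 20 reads with R1881 + DMSO, and CYP51A1.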
